A study of Mus musculus with 8 samples.

Results

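The genes described here encode 10 transporters of bile acids, sterols and organic anions in hepatocytes, chosen by symbol (Abcb11, Abcb4, Abcc2, Abcc3, Abcg5, Abcg8, Slc10a1, Slco1a1, Slco1a4 and Slco1b2) from the 22565 protein-coding genes of the table. Liver RNA came from male C57BL/6J mice bought at the age of 10 weeks, of which 4 received dexamethasone, a synthetic glucocorticoid, at 1.0 mg/kg by intraperitoneal injection each day for 14 days, and 4 received saline as vehicle. No allele or transgene is named, and each group was 4 libraries of whole liver depleted of ribosomal RNA, named here vehicle 1 to 4 and dexamethasone 1 to 4. Nothing in the labels says more about how the mice were housed, or that a library is 1 mouse, so the p-values measure the spread between these libraries. All 10 genes were above the filter of 0.5 FPKM (fragments per kilobase of transcript length, scaled to the size of the library) in all 8 libraries, and they are among the 10221 genes tested.

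Bile acids are made from cholesterol in hepatocytes and circulate between liver and intestine. On the sinusoidal, or basolateral, side hepatocytes take them up from blood through the sodium-dependent carrier NTCP (Slc10a1) and the sodium-independent OATP carriers (Slco genes). On the canalicular side ABC transporters, driven by ATP, export bile salts, phospholipid, conjugated anions and cholesterol into bile. The bile acid receptor FXR (Nr1h4), the oxysterol receptors LXR and the xenobiotic receptors CAR (Nr1i3) and PXR (Nr1i2) are known regulators of genes of this kind.

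With dexamethasone 6 of the 10 transporter genes were lower and 0 were higher at an adjusted p under 0.05 (limma, Benjamini-Hochberg over all genes tested); 7.85% of all genes tested were lower and 1.37% higher by the same rule, 9.22% in either direction. At an unadjusted p under 0.05, 7 of the 10 were lower and 0 higher. Those that fell were Abcg5, Abcc3, Abcc2, Slco1a1, Abcg8 and Slco1b2. Abcb11, Slc10a1, Slco1a4 and Abcb4 did not pass. The median log2 fold change of the 10 genes was -1.03, beside -0.28 over all genes tested in the deposited values. After median-ratio scaling, which divides a library by the median, over genes, of its ratios to the geometric mean of the 8 libraries, the median of all genes was 0.00 and that of the 10 genes -0.66. Then 5 of the 10 were lower and 0 higher, with Abcg8 no longer passing, against 3.03% of all genes lower and 3.3% higher, 6.33% in either direction. In the deposited values each dexamethasone library lay below each vehicle library for 7 of the 10 genes (16.2% of all genes), and after scaling for 5 (7.11%). The reverse, each dexamethasone library above each vehicle library, held for 0 of the 10 genes under either scaling, beside 2.18% of all genes as deposited and 7.31% after scaling.

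**Figure D1:**
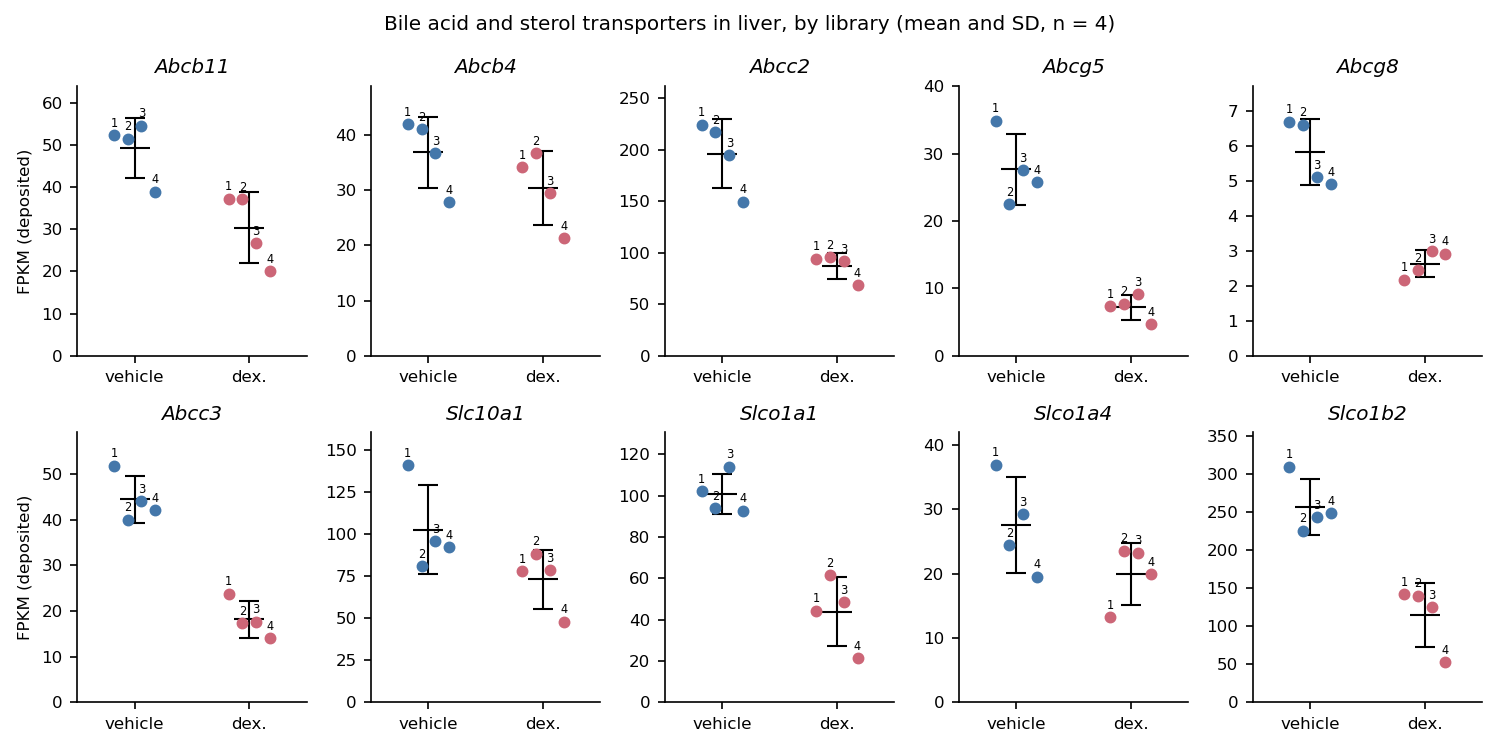
Deposited FPKM (y axis, from 0) of each of the 10 transporter genes in the 4 vehicle (blue) and 4 dexamethasone (red) libraries; points are libraries with their replicate number, and bars show the mean and SD. The groups do not overlap for Abcb11, Abcc2, Abcg5, Abcg8, Abcc3, Slco1a1 and Slco1b2, and they overlap for Abcb4, Slc10a1 and Slco1a4.

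The libraries differed in ways that bear on all these values. Read from the step of the scaled fragment counts, they held 1361293 to 3360084 fragments on protein-coding genes, and a single gene, Lars2, took 14.5% to 25.3% of them with vehicle and 28.4% to 51.1% with dexamethasone. Dexamethasone 4 had the highest Lars2 share and only 665936 fragments outside Lars2. It was the lowest library of its group for 8 of the 10 transporters (6 after scaling), and vehicle 1 was the highest of its group for 8 (7 after scaling). Without dexamethasone 4 the transporters lower were 6 as deposited and 6 after scaling, and without vehicle 1 they were 4 and 3. Of all 10221 genes tested, 573 and 289 were lower without dexamethasone 4, and 423 and 194 without vehicle 1. With all 8 libraries 802 were lower as deposited and 310 after scaling. Summed FPKM of 8 hepatocyte markers was 16000 to 23080 with vehicle and 9141 to 17150 with dexamethasone, and after scaling 12520 to 18680 and 13430 to 18220, so that the scaled ranges overlapped. Most of this sum was Alb, at 11040 to 16340 FPKM with vehicle and 5081 to 10670 FPKM with dexamethasone. Among the 8, 0 passed as deposited. After scaling Cps1 (0.73, adjusted p = 0.0059) and Hnf4a (0.92, adjusted p = 0.011) were higher and 0 were lower. Of the 8 bile duct markers Krt19, Krt7, Sox9 and Cftr were below the filter, with Krt19 at most at 0.953 FPKM and Krt7 at 1.02 FPKM. The summed level of the 8 was 33.7 to 79.0 FPKM with vehicle and 28.95 to 49.8 FPKM with dexamethasone. After scaling it was 27.3 to 66.05 and 37.7 to 47.7, with overlap. Much of it was Spp1, at 17.2 to 54.6 FPKM with vehicle and 11.75 to 28.3 FPKM with dexamethasone. Of the 4 tested, 0 passed under either scaling. In bulk tissue fewer cells of a type and less RNA per cell cannot be told apart. Summed markers of sinusoidal endothelial cells were 40.6 to 53.4 FPKM with vehicle and 33.0 to 60.5 FPKM with dexamethasone, and after scaling 34.1 to 44.6 and 48.3 to 57.9 without overlap. Their 6 members did not move together. Lyve1 was higher (1.05, adjusted p = 0.034, and 1.29 after scaling, adjusted p = 0.0091), Stab1 was higher after scaling alone (0.51, adjusted p = 0.19, and 0.90, adjusted p = 0.016), and Kdr was lower as deposited alone (-0.80, adjusted p = 0.022, and -0.46, adjusted p = 0.15). Scaled Stab1, one of the more abundant of them, was 9.22 to 15.3 FPKM with vehicle and 19.1 to 27.8 FPKM with dexamethasone. Those of stellate cells were 60.3 to 74.3 and 43.4 to 73.9 FPKM, and after scaling 51.0 to 60.3 and 61.6 to 75.4 without overlap, with 0 of the 6 passing under either scaling and Dcn the most abundant. The part of these differences in markers and libraries in the results below was not tested, beyond the scaled values given.

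Abcg5 and Abcg8 encode the sterolins, partners in a heterodimer that exports cholesterol and plant sterols into bile. They lie head to head on chromosome 17 of the mouse genome GRCm38 (GENCODE M21), Abcg5 on the minus strand at chr17:84658234-84683011 (ENSMUSG00000040505) and Abcg8 on the plus strand at chr17:84676302-84700333 (ENSMUSG00000024254). The 2 genes overlap on opposite strands because an upstream start is annotated for Abcg8 within Abcg5. The RefSeq starts used here are separated by 109 bases, chr17:84683012-84683120. That stretch is shown because the gene pair contains the transporter with the largest decrease; it is read 5′ to 3′ on the plus strand, towards Abcg8 (RefSeq promoter table, GRCm38.p6). The capitals mark 6-base matches in either orientation to the GATA motif AGATAA, read here on its other strand, to the glucocorticoid receptor half-site AGAACA and to the TATA box TATAAA, also read on its other strand.
Abcg5 to Abcg8: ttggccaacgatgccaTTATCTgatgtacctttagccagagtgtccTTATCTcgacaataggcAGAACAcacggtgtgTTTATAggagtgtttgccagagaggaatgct
Among the 250 bases before each of 32851 RefSeq starts, AGATAA was present in 9.99%, AGAACA in 16.1% and TATAAA in 12.4%, counting both strands. A match describes these letters and is not evidence of binding.

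Abcg5 showed the largest decrease of the 10 transporters. It stood at 34.9, 22.5, 27.6 and 25.7 FPKM in vehicle 1 to 4 and at 7.33, 7.75, 9.12 and 4.69 FPKM in dexamethasone 1 to 4. The highest dexamethasone library was far below the lowest vehicle library. Mean levels were 27.7 ± 5.25 FPKM for vehicle and 7.22 ± 1.85 FPKM for dexamethasone (SD, n = 4). On log2(FPKM + 1), the scale of all fold changes below, the difference was -1.81 ± 0.23 (SE, adjusted p = 0.0006), or 3.52-fold lower on that scale. This placed Abcg5 at rank 48 from the lowest of the 10221 genes. After scaling it was -1.44 ± 0.18 (adjusted p = 0.00098).

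Abcg8 was the least abundant of the 10 transporters. It had 6.70, 6.61, 5.11 and 4.92 FPKM in vehicle 1 to 4 and 2.18, 2.45, 2.999 and 2.92 FPKM in dexamethasone 1 to 4. The groups did not overlap as deposited. After scaling dexamethasone 4, at 4.296 FPKM, lay just above vehicle 3, at 4.274 FPKM. The log2 fold change was -0.91 ± 0.21 (adjusted p = 0.017), and -0.57 ± 0.20 after scaling (adjusted p = 0.12). Without vehicle 1 or vehicle 2 the deposited value no longer passed (adjusted p = 0.060 and 0.059). These values rest on few fragments, 95 to 134 with vehicle and 23 to 46 with dexamethasone. In the scaled fragment counts, used in place of FPKM as an alternative chosen after seeing the data, Abcg8 fell by 1.43 (adjusted p = 0.00063), and by 0.96 with median-ratio scaling (adjusted p = 0.0016). In the table both genes carry the same locus, and whether the counting used strand is not given in the sources used here, so reads of the overlapping part may not be told apart.

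Abcc2 encodes MRP2, the canalicular exporter of conjugated bilirubin and other anionic conjugates (ENSMUSG00000025194, chr19:43782192-43840740, plus strand). It had 224, 217, 195 and 149.6 FPKM in vehicle 1 to 4 and 94.2, 95.5, 92.0 and 68.6 FPKM in dexamethasone 1 to 4. Every dexamethasone library was below 100 FPKM and every vehicle library above it, and after scaling the dexamethasone libraries lay close together at 91.5 to 103 FPKM beside 149.6 to 181 with vehicle. The mean went from 196 ± 33.6 to 87.6 ± 12.7 FPKM (SD, n = 4; log2 fold change -1.15 ± 0.20, adjusted p = 0.0046, and -0.74 ± 0.13 after scaling, adjusted p = 0.0049). Abcc2 rests on 1155 to 5156 fragments per library.

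Abcb11 encodes BSEP, the bile salt export pump (ENSMUSG00000027048, chr2:69238282-69342616, minus strand). Its FPKM were 52.2, 51.4, 54.5 and 38.9 in vehicle 1 to 4 and 37.2, 37.2, 26.7 and 20.1 in dexamethasone 1 to 4. The groups did not overlap, although vehicle 4 came close to dexamethasone 1 and 2. The log2 fold change of -0.71 ± 0.23 did not pass (adjusted p = 0.071), and it was -0.31 ± 0.14 after scaling (adjusted p = 0.25). It passed with array weights (-0.67, adjusted p = 0.040) and with the scaled fragment counts (-0.75, adjusted p = 0.040).

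Abcb4 encodes MDR2, the flippase that moves phosphatidylcholine to the outer leaflet for secretion into bile (ENSMUSG00000042476, chr5:8893717-8959231, plus strand). It had 41.9, 41.0, 36.6 and 27.8 FPKM in vehicle 1 to 4 and 34.1, 36.6, 29.5 and 21.3 FPKM in dexamethasone 1 to 4. The groups overlapped widely. Its log2 fold change of -0.28 ± 0.22 (adjusted p = 0.44) equalled the median of all genes, and after scaling the sign flipped, to 0.12 ± 0.13 (adjusted p = 0.68). Abcb4 shares 3.42% of the 50-base windows of its longest coding transcript with transcripts of other genes, Abcb1a and Abcb1b, so a small part of its reads may be split between them.

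Abcc3 encodes MRP3, which exports bile acid and drug conjugates from the hepatocyte back into blood (ENSMUSG00000020865, chr11:94343295-94392997, minus strand). It had 51.8, 39.95, 44.1 and 42.01 FPKM in vehicle 1 to 4 and 23.8, 17.4, 17.6 and 14.0 FPKM in dexamethasone 1 to 4. The lowest vehicle library was well above the highest dexamethasone library. The mean went from 44.5 ± 5.18 to 18.2 ± 4.07 FPKM (SD, n = 4; log2 fold change -1.26 ± 0.21, adjusted p = 0.0027, and -0.86 ± 0.16 after scaling, adjusted p = 0.0097). The canalicular exporter Abcc2 and the basolateral exporter Abcc3 thus both fell, and the ratio of Abcc3 to Abcc2 within a library was 0.231 ± 0.0396 with vehicle and 0.208 ± 0.0313 with dexamethasone (SD, n = 4), with overlapping groups.

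**Figure D2:**
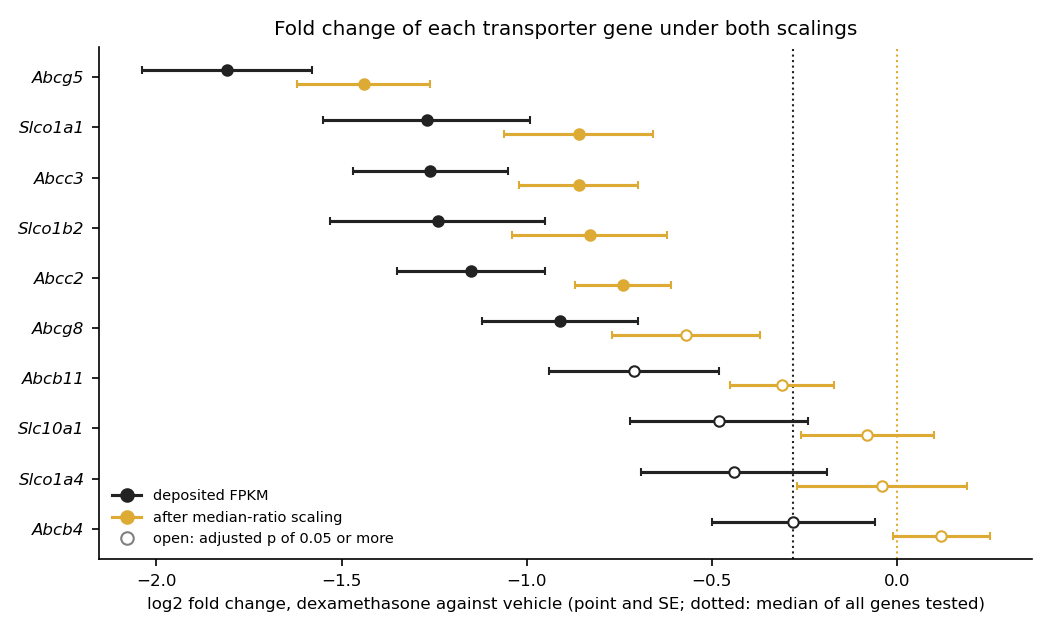
Log2 fold change of each transporter gene, dexamethasone against vehicle (x axis, point and SE), in the deposited FPKM (black) and after median-ratio scaling (yellow); filled points have an adjusted p under 0.05, and dotted lines mark the median of all genes tested, -0.28 and 0.00. Abcg5 lies furthest to the left under both scalings, and Slc10a1, Slco1a4 and Abcb4 lie near the medians.

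Among the uptake carriers, the OATP genes Slco1b2 and Slco1a1 fell while Slc10a1 and Slco1a4 did not pass. Slco1b2 encodes OATP1B2, a carrier of bile acids, bilirubin and drugs (ENSMUSG00000030236, chr6:141629518-141686646, plus strand), and was the most abundant of the 10 transporters with vehicle. It had 309, 225, 243 and 248 FPKM in vehicle 1 to 4 and 142, 140.0, 125 and 52.7 FPKM in dexamethasone 1 to 4. The groups did not overlap, and dexamethasone 4 lay far below the other dexamethasone libraries. The mean went from 256 ± 36.6 to 115 ± 42.2 FPKM (SD, n = 4; log2 fold change -1.24 ± 0.29, adjusted p = 0.019, and -0.83 ± 0.21 after scaling, adjusted p = 0.043). Without vehicle 1 it no longer passed (-1.15, adjusted p = 0.054), nor did it with no filter on low values (adjusted p = 0.060). After scaling it passed in 3 of the 8 fits that left out a library, not without vehicle 1, 3 or 4 or dexamethasone 2 or 3 (adjusted p up to 0.12).

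Slco1a1 encodes OATP1A1, a carrier of anionic steroid conjugates and bile acids that is higher in male than in female mouse liver (ENSMUSG00000041698, chr6:141907282-141946962, minus strand). It had 102, 93.8, 114 and 92.8 FPKM in vehicle 1 to 4 and 44.4, 61.7, 48.3 and 21.4 FPKM in dexamethasone 1 to 4. Every dexamethasone library was below every vehicle library. The mean went from 101 ± 9.84 to 43.9 ± 16.8 FPKM (SD, n = 4; log2 fold change -1.27 ± 0.28, adjusted p = 0.014, and -0.86 ± 0.20 after scaling, adjusted p = 0.025). The scaled value did not pass without vehicle 1, 3 or 4 or dexamethasone 1 (adjusted p up to 0.075).

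Slco1a4 encodes OATP1A4, a carrier of bile acids and cardiac glycosides whose gene is a known target of the receptor PXR (ENSMUSG00000030237, chr6:141805440-141856199, minus strand). It had 36.9, 24.4, 29.2 and 19.5 FPKM in vehicle 1 to 4 and 13.2, 23.5, 23.2 and 19.95 FPKM in dexamethasone 1 to 4. The groups overlapped. The log2 fold change was -0.44 ± 0.25 (adjusted p = 0.27), and -0.04 ± 0.23 after scaling (adjusted p = 0.95). In the scaled fragment counts it passed as deposited (-0.76 ± 0.24, adjusted p = 0.033) but not after scaling (-0.29 ± 0.21, adjusted p = 0.47). Slco1a1 and Slco1a4 share 2.26% and 2.73% of their 50-base windows with other transcripts, mostly of each other and of Slco1a5 and Slco1a6, and the adjacent genes of this cluster may share some reads.

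Slc10a1 encodes NTCP, the main sodium-dependent bile acid carrier of hepatocytes (ENSMUSG00000021135, chr12:80953183-80968705, minus strand). It had 141, 81.0, 96.0 and 92.1 FPKM in vehicle 1 to 4 and 78.0, 88.4, 78.7 and 47.9 FPKM in dexamethasone 1 to 4. Dexamethasone 2 lay above vehicle 2, so the groups overlapped, and vehicle 1 stood above the other libraries. The log2 fold change was -0.48 ± 0.24 (adjusted p = 0.21), and -0.08 ± 0.18 after scaling (adjusted p = 0.87).

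Promoter sequence was at hand for 9 of the 10 genes, not for Abcc3, in 11 windows. Shown here are the 250 bases before the RefSeq start of Abcc2 and Slco1b2, the most abundant genes that fell, and of Abcb4, whose change equalled the median of all genes, 5′ to 3′ on the strand of each gene (GRCm38.p6; Abcc2 chr19:43782058-43782307, Slco1b2 chr6:141629268-141629517 and Abcb4 chr5:8893471-8893720, all plus strand). The capitals mark, on either strand, the nuclear receptor half-site AGGTCA, the glucocorticoid receptor half-site AGAACA and the TATA box TATAAA. GENCODE M21 begins Abcc2 at chr19:43782192, within the window shown. The AGGTCA marked in the Abcc2 window lies after that start, inside the gene as annotated there.
Abcc2: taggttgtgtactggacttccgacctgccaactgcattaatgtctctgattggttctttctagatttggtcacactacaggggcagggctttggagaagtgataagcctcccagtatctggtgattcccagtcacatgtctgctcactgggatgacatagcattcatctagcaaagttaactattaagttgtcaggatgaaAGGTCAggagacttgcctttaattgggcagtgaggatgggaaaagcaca
Slco1b2: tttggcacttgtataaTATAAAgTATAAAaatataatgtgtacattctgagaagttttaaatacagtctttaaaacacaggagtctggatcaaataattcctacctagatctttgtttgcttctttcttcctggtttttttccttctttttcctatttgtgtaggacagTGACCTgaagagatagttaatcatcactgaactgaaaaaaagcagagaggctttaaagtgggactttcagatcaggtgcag
Abcb4: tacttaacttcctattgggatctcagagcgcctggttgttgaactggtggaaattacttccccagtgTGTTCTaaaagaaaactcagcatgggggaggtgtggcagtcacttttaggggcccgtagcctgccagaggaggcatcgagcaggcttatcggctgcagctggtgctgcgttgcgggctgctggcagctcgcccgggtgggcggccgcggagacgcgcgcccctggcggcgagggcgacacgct
AGGTCA was found in 5 of the 11 windows (of Abcb11, Abcc2, Slc10a1, Slco1a1 and Slco1b2) and in 14.0% of all windows. AGAACA was found in 4 of the 11 windows and in 16.1% of all windows. Those were the windows of Abcb11 and Abcb4, which did not pass, and of Abcg5 and Abcg8, which did. The Abcg5 and Abcg8 windows overlap and hold the same AGAACA site, shown above between their starts, so a single site counts for both. The inverted repeat IR1, by which FXR is known to bind, was searched only as an exact match of both half-sites. Such a match was found in 0 of the 11 windows and 2 of all 32851. Copies with a mismatch were not searched for, so these counts cannot tell whether a window, that of Abcb11 included, holds an FXR site.

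The genes Slco1b2, Slco1a4 and Slco1a1 lie in this order within a cluster of OATP genes on chromosome 6. From the Slco1b2 start, the annotated span of Slco1a4 runs from 175.9 to 226.7 kb and that of Slco1a1 from 277.8 to 317.4 kb. Both are on the minus strand, so their own starts are the farther ends. Slco1a4, with a log2 fold change of -0.44 ± 0.25, lies between Slco1b2, with -1.24 ± 0.29, and Slco1a1, with -1.27 ± 0.28; the differences between these genes were not tested. The other named OATP genes of the cluster were below the filter. Slco1a5 was listed at 0 in all 8 libraries, Slco1c1 reached at most 0.0863 FPKM and Slco1a6 at most 0.706 FPKM.

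**Figure D3:**
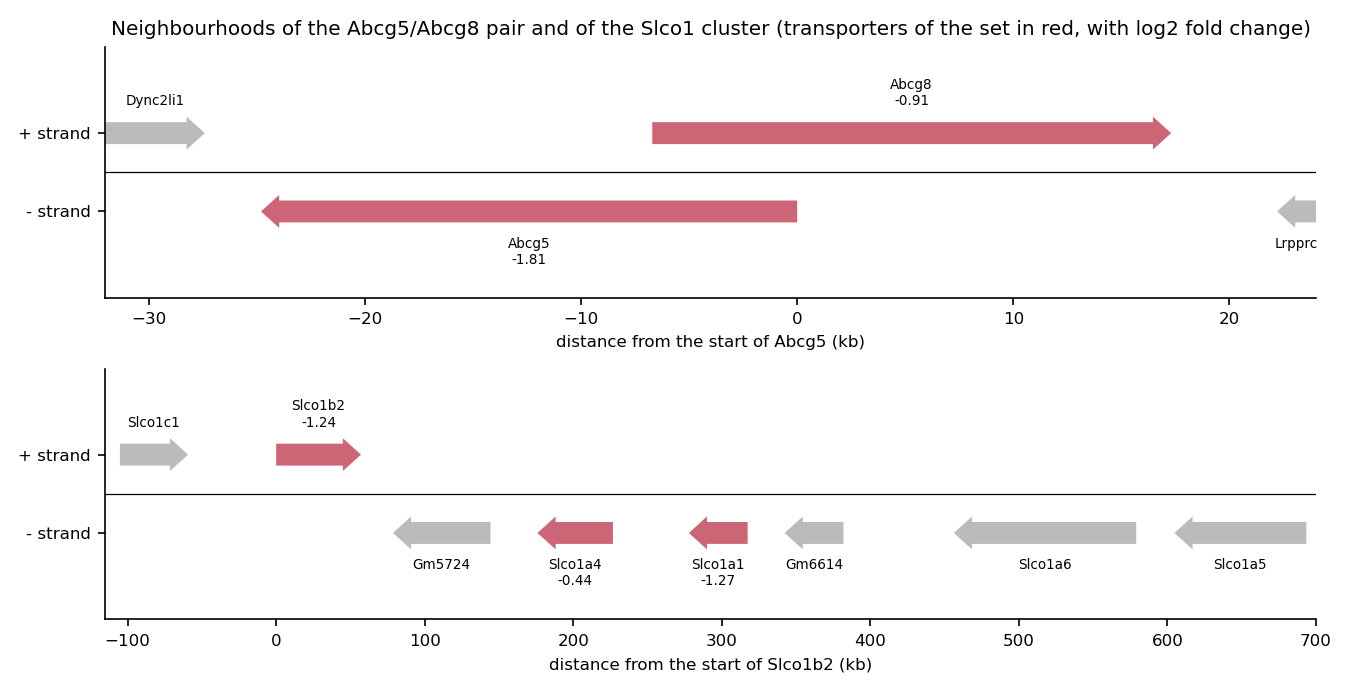
Protein-coding genes (arrows point in the direction of transcription) around the start of Abcg5 (top) and of Slco1b2 (bottom), with the distance in kb on the x axis and the strand on the y axis; the transporters described here are red, with their log2 fold change as deposited. Abcg5 (-1.81) and Abcg8 (-0.91) overlap on opposite strands, and Slco1a4 (-0.44) lies between Slco1b2 (-1.24) and Slco1a1 (-1.27).

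The order of the levels changed little. With vehicle the order by mean FPKM, which is per length, was Slco1b2 (256), Abcc2 (196), Slc10a1 (103), Slco1a1 (101), Abcb11 (49.3), Abcc3 (44.5), Abcb4 (36.8), Abcg5 (27.7), Slco1a4 (27.5) and Abcg8 (5.83). Neighbours whose library ranges did not overlap were Slco1b2 and Abcc2, Abcc2 and Slc10a1, Slco1a1 and Abcb11, and Slco1a4 and Abcg8; the other neighbours overlapped. With dexamethasone the order was Slco1b2 (115), Abcc2 (87.6), Slc10a1 (73.2), Slco1a1 (43.9), Abcb4 (30.4), Abcb11 (30.3), Slco1a4 (19.99), Abcc3 (18.2), Abcg5 (7.22) and Abcg8 (2.64), and only Abcc3 and Abcg5, and Abcg5 and Abcg8, were neighbours without overlap. The summed FPKM of the 10 genes was 741 to 1001 with vehicle and 274 to 511 with dexamethasone.

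Ratios between genes within a library do not depend on how the library was scaled. They are given as descriptions, for pairs chosen with the values known. The ratio of Abcg5 to Abcb11, sterol against bile salt exporter, was 0.668, 0.437, 0.506 and 0.661 in vehicle 1 to 4 and 0.197, 0.209, 0.341 and 0.234 in dexamethasone 1 to 4. It was lower in each dexamethasone library, as was the ratio of Slco1b2 to Slc10a1, with 2.55 ± 0.261 for vehicle and 1.52 ± 0.304 for dexamethasone (SD, n = 4). The ratio of Abcb4 to Abcb11, phospholipid flippase against bile salt pump, was 0.803, 0.797, 0.672 and 0.715 in vehicle 1 to 4 and 0.917, 0.986, 1.1 and 1.06 in dexamethasone 1 to 4. It was higher in each dexamethasone library. The ratio of Abcb11 to Slc10a1, canalicular export against basolateral uptake of bile salts, overlapped between the groups, at 0.499 ± 0.123 and 0.414 ± 0.0564 (SD, n = 4). The ratio of Abcg5 to Abcg8, partners in the sterol exporter, was 4.81 ± 0.942 with vehicle and 2.79 ± 0.804 with dexamethasone (SD, n = 4), and vehicle 2, at 3.4, lay just above dexamethasone 1, at 3.37. The groups overlapped for the ratio of Slco1a4 to Slco1a1, at 0.272 ± 0.0634 and 0.524 ± 0.284, where dexamethasone 4 had the highest value of 0.934. Taken from the scaled fragment counts, the ratios of Abcg5 to Abcb11 and of Abcb4 to Abcb11 again had groups that did not overlap, whereas those of Slco1b2 to Slc10a1 and of Abcg5 to Abcg8 overlapped.

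**Figure D4:**
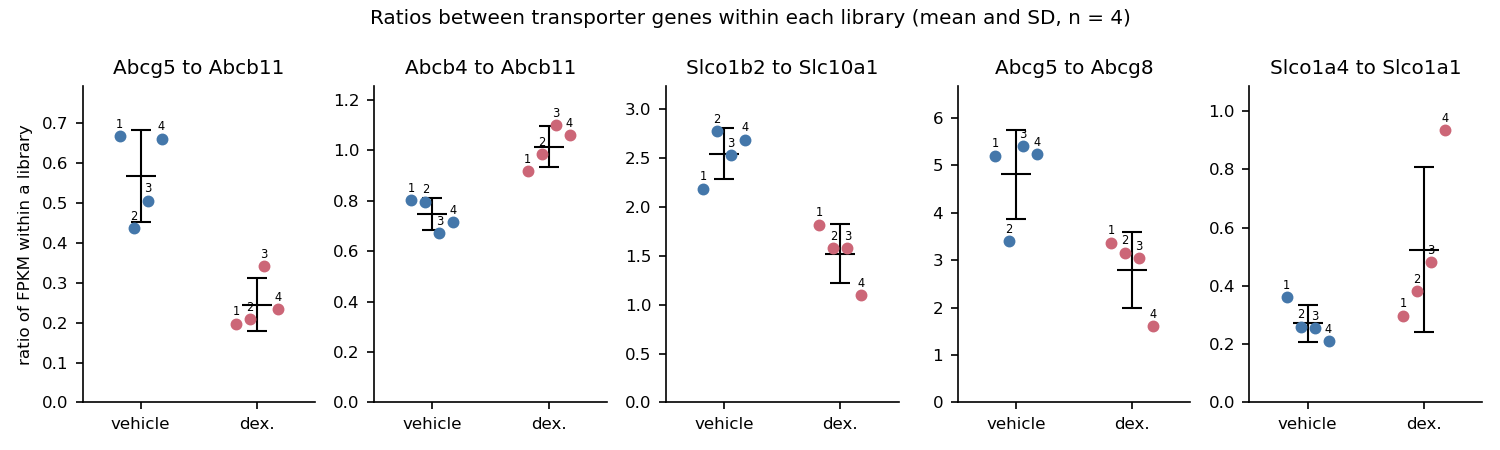
Ratio of FPKM between transporter genes within each library (y axis, from 0; no unit) for 5 pairs, in the 4 vehicle (blue) and 4 dexamethasone (red) libraries, with mean and SD. The Abcb4 to Abcb11 ratio is 0.672 to 0.803 with vehicle and 0.917 to 1.1 with dexamethasone, and the groups overlap for Slco1a4 to Slco1a1 alone.

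For the 6 genes that passed, up to 3 tested genes of most similar profile were taken by the smallest Euclidean distance over the 8 libraries, on log2(FPKM + 1) after scaling and minus the vehicle mean. Nearest to Abcg5 were the carboxylesterase gene Ces1f (distance 0.25), the transglutaminase gene Tgm1 (0.25) and the methyltransferase gene Inmt (0.46). Its partner Abcg8 came at rank 630, with a distance of 1.93 on this scale. Abcc2 was most like Ptprd (0.21), Dock8 (0.21) and Anks4b (0.29), and Abcc3 like Rabggta (0.35) and Slc6a6 (0.41). Slco1b2 lay near Ugt2a3 (0.34), Ugp2 (0.35) and Kng2 (0.38), Slco1a1 near Pld6 (0.32), Scamp1 (0.40) and Itih2 (0.42), and Abcg8 near Srsf10 (0.31), Ptprc (0.32) and Nfx1 (0.34).

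Over all genes tested 7.85% were lower and 1.37% higher as deposited, and 3.03% and 3.3% after scaling. Whether the counts in the lists of related genes differ from these shares was not tested. Of the other efflux transporters 4 of the 13 tested were lower and 0 higher, and 1 and 0 after scaling. The lower ones were Abca8a (-1.85, adjusted p = 0.0022, also after scaling), Abcb6, a porphyrin transporter (-0.98, adjusted p = 0.018), Abca6 (-0.88, adjusted p = 0.027) and Slc47a1, the organic cation exporter MATE1 (-0.88, adjusted p = 0.046). The median of this list was -0.55, and -0.29 after scaling. Slc51a and Slc51b, which encode the basolateral bile acid exporter OST, and Abcc4 (MRP4) were below the filter, Slc51b at 0 in all 8 libraries and Slc51a above 0 in vehicle 2 alone. Of the other uptake genes 3 of 12 were lower and 0 higher (2 and 0 after scaling), with a median of -0.48 and of -0.15 scaled. Among them Slc10a5 fell (-1.11, adjusted p = 0.015, also after scaling), and Slc22a7, the anion carrier OAT2, passed in the deposited values alone (-1.07, adjusted p = 0.024, scaled 0.076).

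Among receptors and factors that regulate such transporters, 5 of 24 were lower and 0 higher as deposited (median -0.47), and 4 lower and 2 higher after scaling (median -0.12). The shares of all genes were 7.85% lower and 1.37% higher as deposited, and 3.03% and 3.3% after scaling. Nr1i3, which encodes CAR, had 148, 105, 88.6 and 95.0 FPKM in vehicle 1 to 4 and 23.4, 33.9, 28.8 and 38.1 FPKM in dexamethasone 1 to 4, and fell by 1.78 on the log2 scale (adjusted p = 0.0006, 0.0057 after scaling). Its groups stood far apart. Also lower were Ghr, the growth hormone receptor (-2.08, adjusted p = 0.00091), Foxa1, a hepatocyte forkhead factor (-1.09, adjusted p = 0.0067), and Nfe2l2, which encodes NRF2 (-1.43, adjusted p = 0.0079). All 4 also passed after scaling. The fifth gene lower as deposited, named after its value was seen, was the glucocorticoid receptor gene Nr3c1 (-0.92, adjusted p = 0.021, scaled 0.097). The FXR gene Nr1h4 did not pass, with vehicle at 32.9 ± 8.95 FPKM and dexamethasone at 21.3 ± 3.49 FPKM (SD, n = 4; -0.58 ± 0.23, adjusted p = 0.12 as deposited and 0.61 scaled). Nr0b2, which encodes the FXR-induced repressor SHP, did not pass either (-0.25, adjusted p = 0.57, and 0.11, adjusted p = 0.87, after scaling). Nor did the PXR gene Nr1i2 (0.06, adjusted p = 0.87, and 0.44, adjusted p = 0.24, after scaling). The same held for the LXR alpha gene Nr1h3 (0.10, adjusted p = 0.79, and 0.48, adjusted p = 0.19, after scaling). Hnf4a was higher only after scaling, with 0.52 as deposited (adjusted p = 0.090) and 0.92 scaled (adjusted p = 0.011); the other such gene was Cebpb (0.83 scaled, adjusted p = 0.027).

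Genes of bile acid synthesis and conjugation went both ways, with 4 of 16 lower and 2 higher as deposited (median -0.37), and 1 lower and 3 higher after scaling (median 0.02). Beside this, 7.85% of all genes were lower and 1.37% higher as deposited, and 3.03% and 3.3% after scaling. Cyp39a1, an oxysterol hydroxylase (1.75, adjusted p = 0.0026), and Acox2, a peroxisomal oxidase that shortens the bile acid side chain (0.96, adjusted p = 0.017), rose under both scalings, and Akr1c6 (-1.63, adjusted p = 0.0021) fell under both. Hsd3b7, an enzyme of early bile acid synthesis, passed in the deposited values alone (-0.88, adjusted p = 0.022, scaled 0.11). Cyp7a1, the rate-limiting enzyme, had 65.3, 54.1, 48.4 and 26.7 FPKM in vehicle 1 to 4 and 48.9, 14.6, 13.3 and 9.04 FPKM in dexamethasone 1 to 4. Dexamethasone 1 lay among the vehicle libraries, and the gene did not pass (-1.37 ± 0.42, adjusted p = 0.059, and -0.98 ± 0.38 after scaling, adjusted p = 0.18). It did not pass under 24 of the 30 alternatives. Without dexamethasone 1 it did (-1.85 ± 0.30, adjusted p = 0.0041), as it did in the scaled fragment counts with all 8 libraries (-1.47 ± 0.32, adjusted p = 0.0027).

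Of proteins that anchor transporters at the canalicular membrane or build its junctions, 6 of 21 were lower and 0 higher (4 and 0 after scaling; median -0.50 and -0.15). They included the tight junction genes Cldn1 (-1.39, adjusted p = 0.0026) and Tjp1 (-1.37, adjusted p = 0.0058), and Tmem30a, a subunit of phospholipid flippases (-1.07, adjusted p = 0.017, 0.051 after scaling). For all genes the shares were 7.85% lower and 1.37% higher as deposited, and 3.03% and 3.3% after scaling.

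**Figure D5:**
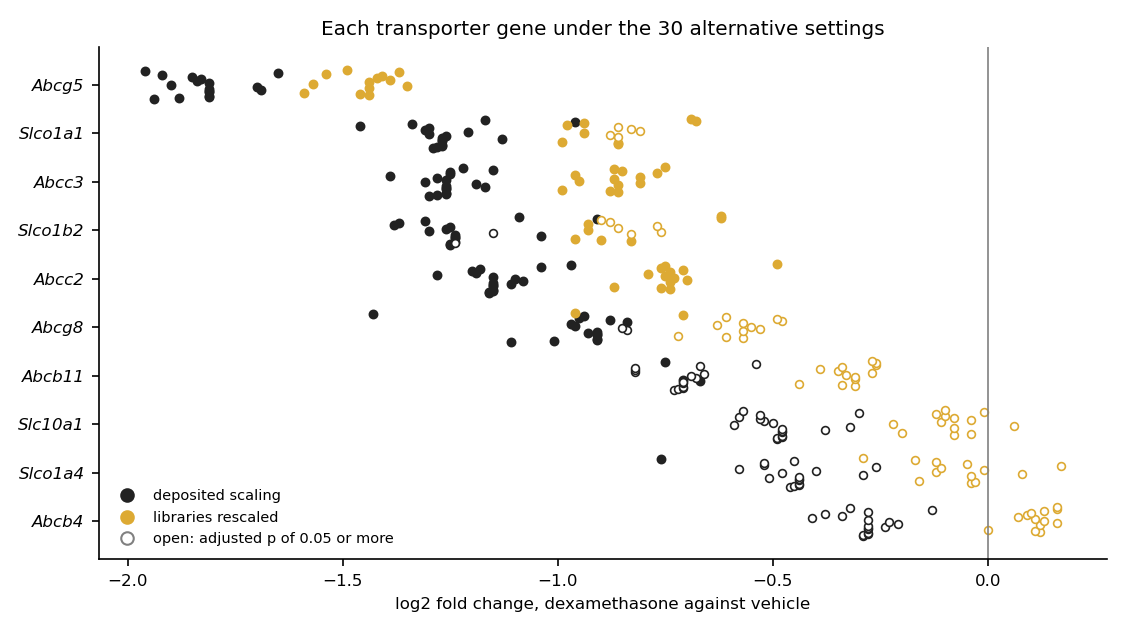
Log2 fold change (x axis) of each transporter gene under the 30 alternative settings, in fits that kept the deposited scaling (black) and in fits that rescaled the libraries (yellow); filled points have an adjusted p under 0.05. Abcg5, Abcc2 and Abcc3 are filled in all 30, and Slc10a1 and Abcb4 in 0.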

How the data were processed

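Total liver RNA was sequenced from strand-specific libraries after ribosomal RNA was removed, per the labels' protocols. Reads were processed with CASAVA 1.8 and aligned with TopHat2, per the submitters' processing notes, which name the human build hg19, although identifiers and positions in the deposited table are those of mouse. The counting tool is not given in the sources used here. The authors deposited FPKM for 8 libraries, per the file headers, with a denominator that is not stated, and 8 further columns called counts. The latter were treated as a signal deposited by the authors, namely fragment counts scaled by a factor per library. Whole multiples of a library's step (tolerance 0.01 of a step) made up 93.2% to 95.4% of its values below 500 steps, so reads were not taken as recovered and no count model was run.

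A gene was tested if it reached 0.5 FPKM in 4 libraries. On log2(FPKM + 1), linear models with treatment as the only term were fitted in limma 3.58.1 under R 4.3.3 (with statmod 1.5.0), the trend option of empirical Bayes was on, and two-sided p-values were adjusted by Benjamini-Hochberg with a threshold of 0.05. The fitting step alone was tested on simulated data, built from median-ratio scaled values. That does not cover the shift between libraries in the deposited values. Fold changes on this scale understate the change of low genes, and fragment numbers cover counting error only. Both groups number their libraries 1 to 4, with nothing in the labels that ties equal numbers together. The alternatives comprised other pseudocounts (0.1 and 0.5), other filters (none, and 1 FPKM), median-ratio, quantile and Lars2-free scaling, no trend, robust empirical Bayes, array weights, a replicate block, and each library left out in turn. The scaled counts in place of FPKM, with at least 5 in at least 4 libraries, were added after seeing the data. Locations are from GENCODE M21, and promoter windows from RefSeq.

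The 10 genes and the lists of related genes were chosen with earlier results of these data known. Genes named are the 10, from each list the 4 with the lowest p, and Nr1h4, Nr0b2, Nr1i2, Nr1i3, Nr1h3, Hnf4a and Cyp7a1 whatever their values. Some genes that this rule names are not reported here. Genes below the filter were added after their values were seen. For Kupffer cell markers the summed FPKM was 18.1 to 35.5 with vehicle and 13.9 to 20.3 with dexamethasone, for T and B cell markers 1.06 to 2.36 and 0.113 to 0.652 (Cd3d at 0), and for markers of intestine and kidney 4.50 to 7.64 and 2.54 to 5.55 (Umod and Slc12a1 at 0). After scaling these were 18.1 to 28.8 and 19.4 to 22.0, 0.890 to 1.845 and 0.119 to 0.959, and 3.52 to 6.19 and 2.92 to 5.84. All of these scaled ranges overlapped between the groups. Of the T and B cell markers only Ptprc was tested (-0.67, adjusted p = 0.047, and -0.48, adjusted p = 0.2, after scaling).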

Additional observations from a re-analysis of the deposited data

Results flagged for a closer look

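Of the 66 groups of 4 libraries checked for 33 named genes, 2 had a library set apart from the other 3 by more than the 95% critical value of Dixon's test, where chance alone flags about 1 group in 20. Abcc2 was at 68.6 FPKM in dexamethasone 4 beside 92.0 to 95.5 FPKM in the other dexamethasone libraries, and after median-ratio scaling dexamethasone 4 lay within their range. Cyp7a1 was at 48.9 FPKM in dexamethasone 1 beside 9.04 to 14.6 FPKM in the others.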

How the results depend on the processing

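Under all 30 alternatives Abcg5, Abcc2 and Abcc3 passed (log2 fold changes of -1.96 to -1.35, -1.28 to -0.49 and -1.39 to -0.75), and Slc10a1 and Abcb4 passed under 0. Slco1a1 passed under 25, Slco1b2 under 22, Abcg8 under 17, Abcb11 under 3 and Slco1a4 under 1. The transporters lower numbered 5 to 8 under the alternatives that kept all libraries, except 3 with the replicate block and median-ratio scaling together, and 0 were higher. With a library left out they were 4 to 6 as deposited and 3 to 6 after scaling, and those higher 0 throughout. Over all genes, lower genes were 802 and higher genes 140 as deposited. They were 310 and 337 after median-ratio scaling, 335 and 335 after quantile normalization, 415 and 237 outside Lars2, and 192 and 243 with the replicate block and median-ratio scaling. With the scaled counts 1518 were lower and 172 higher, with these after median-ratio scaling 548 and 550, and without a filter 487 and 113. Leaving out a library gave 367 to 866 lower and 107 to 170 higher genes as deposited, and 183 to 289 and 221 to 311 after scaling.

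Signs that flipped were those of genes that did not pass. Abcb4 became 0.12 with median-ratio scaling, 0.11 with quantile normalization, 0.12 with the replicate block and median-ratio scaling, 0.16 with scaled counts and median-ratio scaling, and -0.41 to 0.16 with a library left out. Nr0b2 became 0.11, 0.08, 0.11 and 0.03 under the same alternatives, 0.00 outside Lars2, and -0.46 to 0.27 with a library left out. Nr1i2 became -0.02 with scaled counts, and with a library left out Nr1h3 was -0.02 to 0.61, Slc10a1 was -0.59 to 0.06 and Slco1a4 was -0.58 to 0.17. The cause was not tested. The replicate block alone gave 956 lower and 159 higher genes and 7 transporters lower, with Abcb11 then at an adjusted p of 0.038. Deviations of same-numbered libraries from their group means had correlations of -0.0152 to 0.0208. With so few pairs these values cannot tell whether equal numbers share a batch, and the labels do not say. The planned edgeR and DESeq2 fits were not run because whole reads were not recovered. Depth limits Abcg8 most, with 23 fragments in dexamethasone 4.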

Other observations

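The deposited FPKM and the scaled counts of a gene are not in a fixed proportion over libraries. The FPKM per scaled fragment of Abcb11 and Abcb4 varied by 1.08 and 1.1 times between the lowest and the highest library, whereas that of Abcg8 varied by 2.01 times, from 0.046 in vehicle 1 to 0.0923 in dexamethasone 4, and that of Slco1a4 by 1.88 times, from 0.0805 in vehicle 2 to 0.151 in dexamethasone 2. For Slco1a1 and Slco1b2 it was 1.58 and 1.54 times, lowest in dexamethasone 4 and highest in vehicle 1 for both.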
